A study of Mus musculus with 12 samples.

Results

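Cytosolic ribosomal protein genes were followed gene by gene through the onset of BCR::ABL1 expression in murine haemopoietic stem and progenitor cells. The genes were every protein-coding mouse gene whose symbol starts with Rpl or Rps and a digit, together with Rplp0, Rplp1, Rplp2 and Rpsa, leaving out the S6 kinases (Rps6k) and symbols marked as pseudogenes. The rule took 86 of the 56748 genes in the count tables, 46 of the large and 31 of the small subunit, and 9 that are paralogs or carry a similar name. It used no measured value. Of these 86 genes, 83 passed the filter on low counts, and the 3 that did not, Rpl3l, Rpl10l and Rpl39l, were left out of the gene-by-gene test.

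The cells were donor-derived (CD45.2+) Lin-Sca+Kit+ (LSK) bone marrow cells, a sorted fraction that holds stem and multipotent progenitor cells. Donors were SCLtTA/BCR-ABL double transgenic (DTG) mice, in which a tetracycline (TET) transactivator driven by the Scl enhancer, active in stem and progenitor cells, switches on human BCR::ABL1 once TET is withdrawn. Pooled, frozen DTG marrow of donors of both sexes was transplanted into irradiated CD45.1 B6.SJL recipients aged 8 to 12 weeks, and all recipients drank TET for 2 weeks. The CTRL group (BCR::ABL1-, n = 6 libraries) then stayed on TET for another 2 weeks, and the CML 2wk group (BCR::ABL1+, n = 6 libraries) spent those 2 weeks without it. Effects of BCR::ABL1 and of TET itself therefore cannot be told apart between the groups. By this design all 12 libraries carry both transgenes and followed the same transplantation protocol, and each library was made from sorted cells in bulk. Whether the same donor pool served all 12 is not stated in the sources used here.

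A ribosome has a large subunit, which forms peptide bonds and holds the exit tunnel, and a small subunit, which decodes the mRNA. Each is built on ribosomal RNA from proteins that are needed in nearly equal numbers, most of them encoded by 1 active gene among many silent processed copies. Their mRNAs begin with a terminal oligopyrimidine (TOP) tract, a C followed by a run of C and T, through which mTOR signalling and Larp1 control their translation. In stem cells, blood formation is sensitive to ribosomal protein dose, and loss of 1 copy of several of these genes causes Diamond-Blackfan anaemia. A few have paralogs, such as Rpl22l1 and Rps27l, whose products can take the place of the parent protein.

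Library totals were 22804754 to 41832868 counts in CTRL and 16150817 to 25070105 in CML 2wk. Mitochondrial genes took 0.816% to 1.288% of counts in CTRL and 2.258% to 2.973% in CML 2wk. The labels call CTRL male and CML 2wk female, yet Xist, the RNA of the inactive X chromosome in female cells, stood at 3794 to 4425 CPM in CTRL and at 2183 to 3502 CPM in CML 2wk, while the Y-linked Ddx3y did not exceed 0.588 CPM in CTRL or 8.64 CPM in CML 2wk. Counts of markers called are to be read beside the 30.6% of all genes tested that were higher in CML 2wk and the 29.0% that were lower. Of the markers of the sort, Kit fell (log2 fold change -0.86) and Ptprc, which encodes CD45, rose by 0.27 (edgeR adjusted p = 0.00274). Ly6a, which encodes Sca-1, had a log2 fold change of 0.38 (edgeR adjusted p = 0.0660). Cd34 and Flt3, listed with them, were called lower, with log2 fold changes of -0.44 and -0.73. The 4 stem cell markers listed all fell. Markers of mast cells and basophils summed to 76.4 to 166 CPM in CTRL and 392 to 2310 CPM in CML 2wk, with 6 of 8 higher. Among the other lists, 6 of 7 erythroid and 4 of 4 megakaryocyte markers tested were lower, while 4 of 9 granulocyte markers were higher and 4 lower, and 3 of 6 monocyte markers were higher and 1 lower. Markers that the lineage gate removes summed to 14.4 to 36.0 CPM in CTRL and 6.60 to 14.6 CPM in CML 2wk, with 4 of 6 lower. Of B cell markers 1 of 5 was lower, of T and NK cell markers 1 of 4 was higher, and of proliferation genes 4 of 8 were higher and 3 lower. Stromal genes (collagens, Sparc and others) summed to 17.6 to 32.4 CPM in CTRL, to 844 and 305 CPM in CML 2wk replicates 2 and 4, and to between 2.66 and 3.64 CPM in the remaining 4. The part of these cell types in the results below was not tested. In bulk cells, fewer cells of a type and less RNA per cell cannot be told apart, and every level below is relative to the RNA counted in its library.

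Ribosomal protein mRNAs took up a larger part of the transcriptome in BCR::ABL1+ cells. The 86 genes together held 4.35%, 4.86% and 4.96% of counts at the lowest, the median and the highest CTRL library, against 6.84%, 7.89% and 10.5% in CML 2wk. The 2 groups did not overlap. CML 2wk replicate 6 (10.5%) and replicate 3 (9.38%) were the highest, and replicates 2 (6.84%) and 5 (6.95%) the lowest. From the highest share to the lowest (replicates 6, 3, 4, 1, 5 and 2), mast cell and basophil markers summed to 392, 586, 965, 740, 843 and 2310 CPM, and granulocyte markers to 8541, 6091, 3608, 6672, 3115 and 6900 CPM. Mast cell and basophil sums were lowest in replicates 6 and 3, with the highest shares, and highest in replicate 2, with the lowest share. Only replicate 4 broke this inverse order. Granulocyte sums followed the shares in neither direction. A link of either sum to the shares was not tested. Without CML 2wk replicates 2 and 4, the libraries with stromal counts, the CML 2wk median was 8.55%. These shares are a description, with no test, because the genes were chosen with earlier results of these data known.

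**Figure D1:**
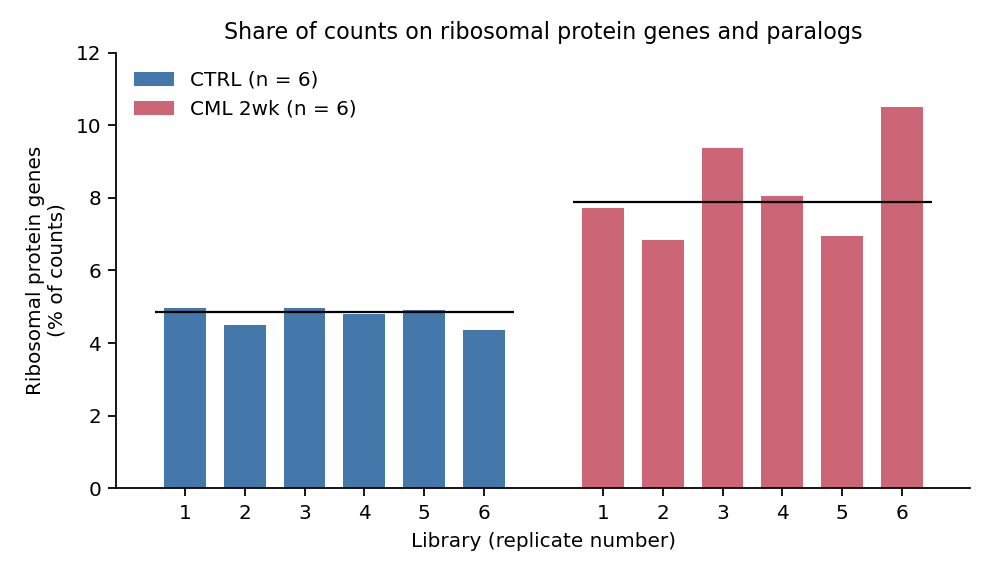
Percent of all counts in each library that fell on the 86 ribosomal protein genes and paralogs, with the libraries on the x axis by group and replicate number and the group median as a black line. The 6 CTRL libraries lie between 4.35% and 4.96% and the 6 CML 2wk libraries between 6.84% and 10.5%.

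The balance between the subunits also differed in counts. The large subunit held 2.37% to 2.70% of counts in CTRL and 3.59% to 5.38% in CML 2wk, and the small subunit 1.95% to 2.24% and 3.16% to 5.05%. The ratio of large to small subunit counts was 1.19 to 1.22 in CTRL and 1.06 to 1.15 in CML 2wk, so that every CML 2wk library lay under every CTRL library. This ratio needs no scaling between libraries, and it is given without a test.

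Gene by gene, 75 of the 83 genes tested rose in CML 2wk and none fell (edgeR quasi-likelihood test, Benjamini-Hochberg adjusted p under 0.05 over 18438 genes). Across all genes tested, 59.5% were called, 30.6% as higher and 29.0% as lower in CML 2wk. The share of ribosomal protein genes called higher was 90.4%. In 65 of the 83 genes (78.3%) every CML 2wk library lay above every CTRL library, which held for 17.0% of all genes. The median log2 fold change was 0.81 (1.76-fold), with quartiles at 0.62 and 1.00, against 0.07 (1.05-fold) over all genes. Changes above 1 on the log2 scale were seen in 22 genes, changes of 0.5 to 1 in 49, and changes below 0.5 in 12. Large subunit genes rose in 40 of 46 cases (median 0.77), small subunit genes in 30 of 31 (median 0.87), and paralogs and other genes in 5 of 6 tested (median 0.90).

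**Figure D2:**
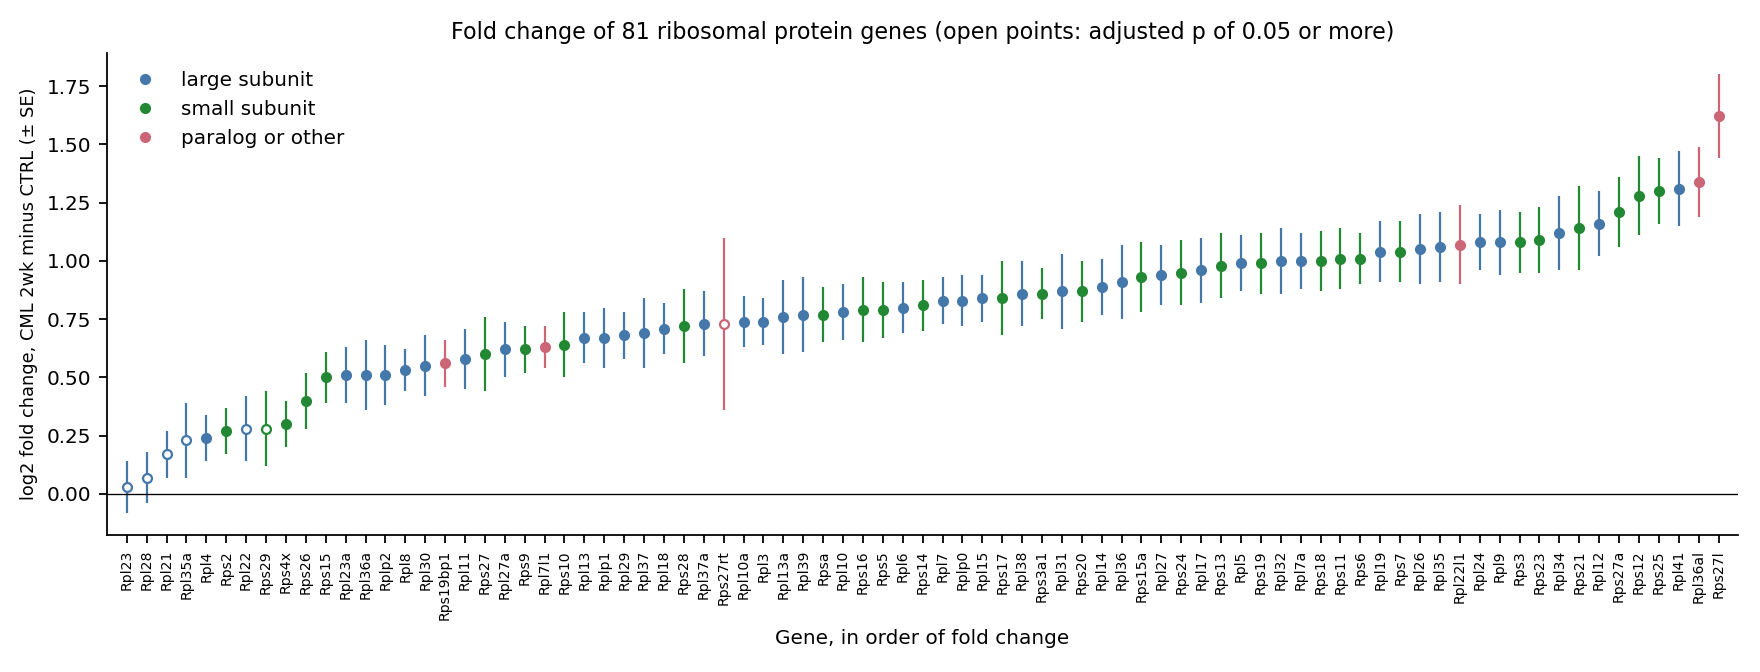
Log2 fold change of CML 2wk over CTRL for 81 of the genes tested, in increasing order along the x axis, with bars of 1 SE and open points for genes whose adjusted p was 0.05 or more. Estimates run from 0.03 for Rpl23 and 0.07 for Rpl28 to 1.62 for Rps27l.

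Rps27l had the largest increase. It encodes a paralog of eS27, a small subunit protein that binds zinc. Its level was 54.4, 60.9 and 71.8 CPM at the lowest, median and highest CTRL library and 104, 177 and 273 CPM in CML 2wk. The lowest CML 2wk value, in replicate 2, was above the highest CTRL value. The increase was 3.07-fold (log2 fold change 1.62 ± 0.18 SE, adjusted p = 3.03e-06).

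Rpl36al, a paralog of Rpl36a that lies on an autosome, followed with a log2 fold change of 1.34 ± 0.15 (adjusted p = 3.59e-06). It was a scarce mRNA, at 8.92 to 11.9 CPM in CTRL and 17.3 to 36.3 CPM in CML 2wk, and the groups did not overlap. Rpl41 encodes the smallest ribosomal protein, a short basic peptide at the interface of the subunits. It rose from a median of 354 CPM (303 to 380) to 867 CPM (578 to 1204), a log2 fold change of 1.31 ± 0.16 (adjusted p = 6.93e-06).

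The other genes among the 10 largest increases were mostly of the small subunit. Rps25, whose protein is required by several viral internal ribosome entry sites, rose 2.47-fold, from 508 to 628 CPM to 1086 to 1997 CPM (adjusted p = 2.37e-06). Rps12 rose 2.42-fold, from 752 to 969 CPM to 1413 to 3178 CPM (adjusted p = 1.96e-05). Rps27a, which encodes ubiquitin fused to eS31, rose 2.31-fold (adjusted p = 7.79e-06). Rpl12, at the base of the stalk on which translation factors act, rose 2.24-fold (adjusted p = 5.07e-06). Rps21 and Rpl34 rose 2.20-fold and 2.17-fold, with adjusted p of 9.53e-05 and 3.72e-05. In each of these genes the lowest CML 2wk library lay above the highest CTRL library.

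Of the 83 genes, 8 did not pass the test, and those outside the naming rule are described after their values were seen. Rpl23 stood at 631 to 782 CPM and 496 to 912 CPM (log2 fold change 0.03 ± 0.11, adjusted p = 0.858). Rpl28 stood at 472 to 591 CPM and 432 to 702 CPM (0.07 ± 0.11, adjusted p = 0.589).

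For Rpl21, Rpl35a and Rps29, log2 fold changes were 0.17 ± 0.10, 0.23 ± 0.16 and 0.28 ± 0.16, with adjusted p of 0.166, 0.231 and 0.153. Rpl22 gave 0.28 ± 0.14 (adjusted p = 0.0947), and Rps27rt, a retrotransposed copy of Rps27 at 1.09 to 5.03 CPM in CML 2wk, gave 0.73 ± 0.37 (adjusted p = 0.107). The errors leave room for a modest rise in each of these. Rpl22 passed the threshold without CML 2wk replicate 2 (0.34), Rps29 without CML 2wk replicate 5 (0.37) and Rps27rt without CML 2wk replicate 4 (0.89).

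The smallest changes that did pass the test were those of Rpl4, Rps2, the X-linked Rps4x (0.30 ± 0.10) and Rps26. Rpl4, whose protein lines the exit tunnel, had 1832 to 2216 CPM in CTRL and 1965 to 2966 CPM in CML 2wk (log2 fold change 0.24 ± 0.10, adjusted p = 0.0451). Rps2, near the entry of the mRNA channel, had 927 to 1192 CPM and 1133 to 1705 CPM (0.27 ± 0.10, adjusted p = 0.0299). The groups overlapped in both. Without CML 2wk replicate 6 these values were 0.16 and 0.18 and neither passed, and leaving out other single libraries also ended the calls of Rpl4 (without CTRL replicates 1 to 6 or CML 2wk replicates 1 or 2) and of Rps2 (without CTRL replicates 2, 4 or 6 or CML 2wk replicate 1). Rps26, which contacts the mRNA upstream of the start codon, rose by 0.40 ± 0.12 (adjusted p = 0.00922). Rpl4, Rps2 and Rps26 were named after their values were seen.

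Libraries of CML 2wk moved together in most of these genes. Relative to the CTRL mean, the median of the 83 genes on the log2 scale was 0.73, 0.53, 1.00, 0.72, 0.52 and 1.31 in CML 2wk replicates 1 to 6, while the CTRL libraries lay between -0.15 and 0.10. Over all genes tested, the same median lay between -0.01 and 0.04 in the CML 2wk libraries. The median SD over libraries was 0.12 in CTRL and 0.33 in CML 2wk (log2 CPM), against 0.14 and 0.30 over all genes. Once each library's median over the ribosomal protein genes was subtracted, the median SD was 0.07 and 0.11. Among the genes with the largest remaining SD in CML 2wk were Rps27rt (0.83), Rpl4 (0.27), Rps27l (0.26), Rps2 (0.25) and Rps21 (0.24). In replicate 3, with the second highest median, Rpl23 was at 733 CPM and Rpl4 at 2196 CPM, both within their CTRL range, while Rps12 was at 2661 CPM and Rpl41 at 1048 CPM.

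**Figure D3:**
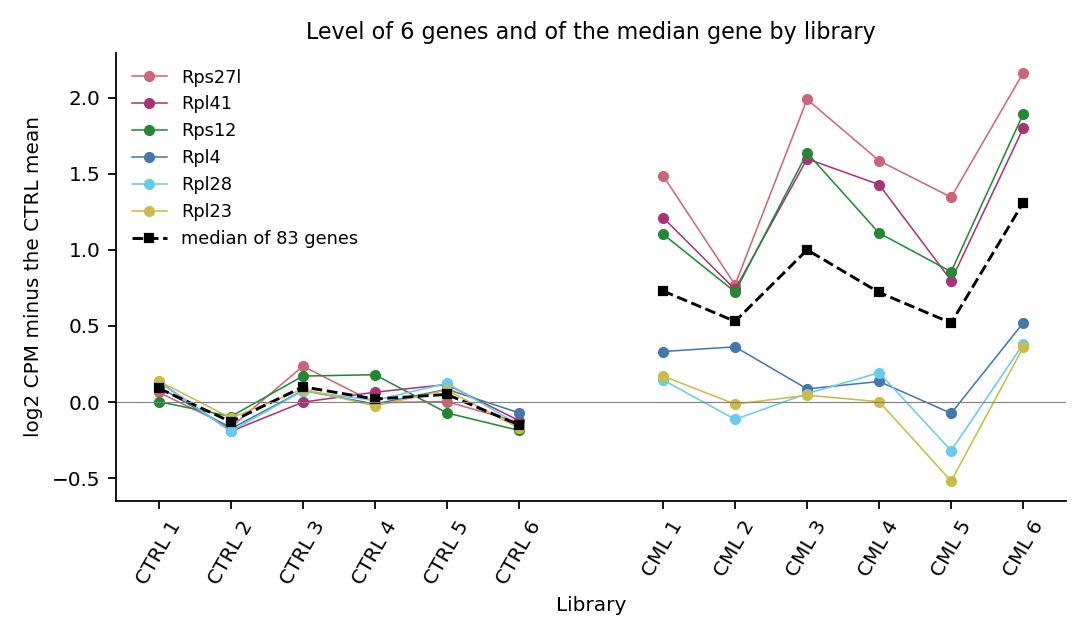
Level of 6 genes in each library as log2 CPM minus the mean of the CTRL libraries, with the median of the 83 genes as black squares; lines only join the points of a gene within a group. Rps27l, Rpl41 and Rps12 lie above the median gene in every CML 2wk library, while Rpl4, Rpl28 and Rpl23 lie below it in every CML 2wk library.

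The result did not depend on CML 2wk replicate 6 alone, although that library was the highest. The library numbers of replicates 6 of both groups lie close together and apart from those of replicates 1 to 5, which form 1 consecutive series in each group, and what the numbers mark is not stated in the sources used here. Between replicates 6 of the 2 groups the median log2 difference of the 83 genes was 1.43, against 0.00 over all genes. Between the means of replicates 1 to 5 the median over the 83 genes was 0.67. Without replicate 6 of both groups 71 genes were called higher and none lower. The median log2 fold change there was 0.68, against 0.07 over all genes. Without CML 2wk replicates 2 and 4, an alternative chosen after the data were seen, 76 were called higher, with a median of 0.89.

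By place in the ribosome, each count of genes that rose is to be read beside the 30.6% of all genes. Rpl5 and Rpl11, which bind 5S ribosomal RNA, both rose, by 0.99 and 0.58. All 4 genes of the stalk and its base rose. Rplp0, the stalk's anchor, went from 1215, 1407 and 1482 CPM (lowest, median and highest CTRL library) to 2022, 2420 and 3330 CPM in CML 2wk (0.83 ± 0.11, adjusted p = 1.10e-05). Its acidic partners Rplp1 and Rplp2 rose by 0.67 ± 0.13 and 0.51 ± 0.13 (adjusted p = 0.000463 and 0.00328). Of 11 genes lining the exit tunnel or its opening, 10 rose, the exception being Rpl22. Both genes at the mRNA entry, Rps2 and Rps3, and all 3 at the mRNA exit, Rps14, Rps26 and Rps28, rose. Rpsa, the laminin receptor homologue of the small subunit, rose from a median of 1631 to 2473 CPM (0.77 ± 0.12, adjusted p = 4.89e-05), with no overlap between the groups.

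Of 15 genes mutated in Diamond-Blackfan anaemia, 13 rose and none fell, with a median log2 fold change of 0.84. These 15 are among the 83 genes tested, of which 90.4% rose with a median of 0.81, so the list lies near the whole. Of all genes 30.6% rose. Rps19, the gene most often affected, rose by 0.99 ± 0.13 (adjusted p = 1.73e-05), and Rpl35a and Rps29 did not pass the test. The 4 X-linked genes were Rpl10 (0.78 ± 0.12), Rpl39 (0.77 ± 0.16), Rpl36a (0.51 ± 0.15) and Rps4x (0.30 ± 0.10), with adjusted p of 4.39e-05, 0.000703, 0.0101 and 0.0180. Without replicate 6 of both groups, Rps4x (0.19) and Rpl36a (0.39) no longer passed. The labelled sex and the groups cannot be told apart. The sorted cells are donor-derived, so Xist and Ddx3y reflect the sex of the donors. Whether the labels describe donors or recipients was not established. In the CTRL cells, labelled male, Xist was at least 3794 CPM and Ddx3y at most 0.588 CPM. These values go against that label if it describes donors. In the other group, labelled female, Xist was at least 2183 CPM and Ddx3y at most 8.64 CPM. Both groups thus showed high Xist and low Ddx3y, although the donor pool held both sexes. The cause was not tested.

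The balance between paralogs and their parents shifted in several pairs. For each pair, the paralog's percent of the counts of both genes was taken in each library, a share that needs no scaling, and compared with a two-sided exact permutation test, adjusted over the 9 pairs tested. Rpl22l1 encodes a paralog of eL22, an RNA-binding protein at the surface of the large subunit. It made up 17.5%, 18.8% and 19.2% of the pair at the lowest, median and highest CTRL library and 25.4%, 28.3% and 30.2% in CML 2wk, a difference of 9.38 points (exact p = 0.00216, adjusted p = 0.00487, higher in 6 of 6 libraries). The exact p is the smallest that 6 against 6 libraries allow. Rpl22l1 itself rose by 1.07 ± 0.17, from 67.6 to 81.6 CPM to 102 to 251 CPM, beside 0.28 for Rpl22.

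Rps27l made up a median of 14.1% of its pair with Rps27 in CTRL (at most 15.0%) and 24.5% in CML 2wk (20.6% to 28.6%). The difference was 10.7 points (exact permutation p = 0.00216, adjusted p = 0.00487). Here both genes rose, Rps27 by 0.60 ± 0.16 (adjusted p = 0.00517). Rpl36al made up 4.08% to 4.79% of its pair with Rpl36a in CTRL and 6.69% to 8.73% in CML 2wk, a difference of 3.23 points with the same p values. In these 3 pairs no CML 2wk library overlapped CTRL.

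Rpl7l1, which resembles Rpl7 but is known from ribosome assembly, moved the other way within its pair, as both genes rose and Rpl7 rose more. Its share was 9.60% to 11.3% in CTRL and 8.82% to 9.79% in CML 2wk, a difference of -1.22 points (exact permutation p = 0.00433, adjusted p = 0.00779), and 1 CML 2wk library lay within the CTRL range. Rpl7l1 rose by 0.63 ± 0.09 and Rpl7 by 0.83 ± 0.10.

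**Figure D4:**
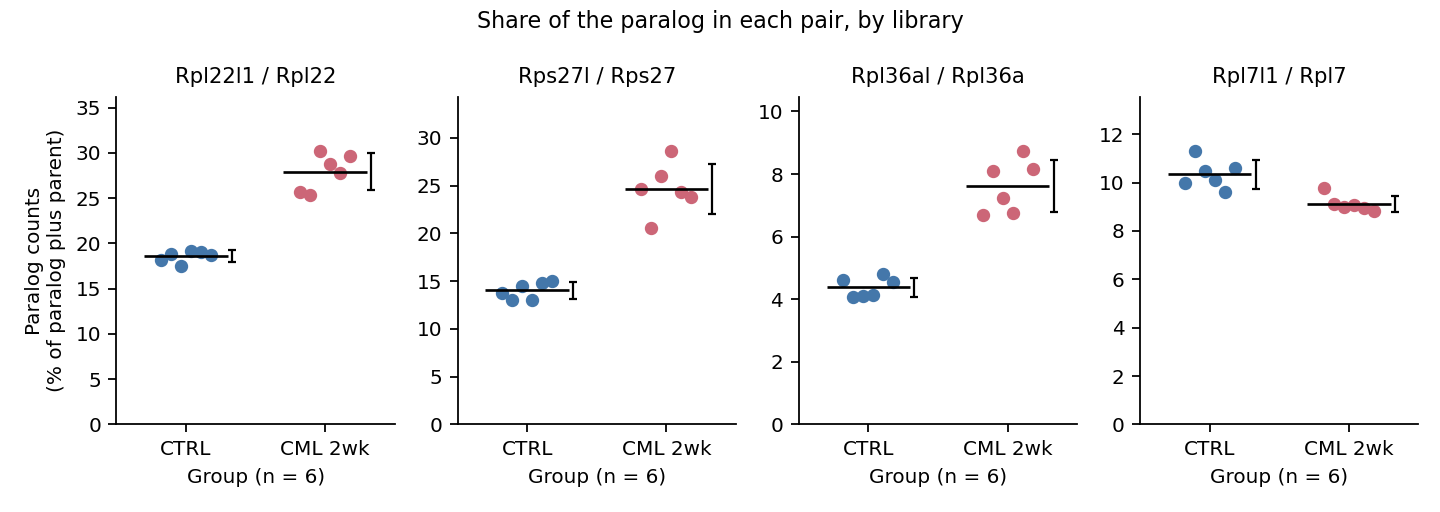
Percent of the paralog in the counts of paralog plus parent for 4 pairs, with 1 point per library, the group mean as a line and 1 SD beside it; each panel has its own y axis from 0. The CML 2wk points lie above all CTRL points for Rpl22l1, Rps27l and Rpl36al, and lower, with some overlap, for Rpl7l1.

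The remaining paralogs were scarce. Rpl3l, known as a paralog of striated muscle, had 6 to 22 counts in CTRL and 0 to 8 in CML 2wk. Its share of the pair with Rpl3 had a median of 0.0421% in CTRL and 0.0116% in CML 2wk. This pair met the count limit of the test only through CTRL, so its p is not read as a result. Rpl3l itself overlapped between the groups (0.238 to 0.753 CPM and 0 to 0.453 CPM), while Rpl3 rose by 0.74. Rps27rt held 0.312% to 0.666% of its pair in CTRL and 0.236% to 1.03% in CML 2wk (exact permutation p = 0.797, adjusted p = 0.797). Rpl10l, known from the testis, had 0 counts in all 12 libraries, and the limit that 3 counts set was 0.0725 to 0.184 CPM per library.

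Rpl39l, a paralog of the X-linked Rpl39 that is also known from the testis, had 0 to 3 counts in CTRL and 0 to 6 in CML 2wk replicates 1 to 5, but 88 counts (4.34 CPM) in replicate 6. That library is the one with the highest share of ribosomal protein mRNA. Rps4l, Rps3a2 and Rps3a3 have no protein-coding annotation in the reference used and are not among the 86 genes. Their shares beside Rps4x or Rps3a1 were under 1% in every library and did not pass the test (adjusted p of 0.484, 0.657 and 0.146, exact permutation tests).

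Many of these genes have close copies elsewhere in the genome, and how reads that match several places were counted is not given in the sources used here. Over the tested genes, a median of 51.3% of the 75-base windows of the transcript also occurred in a transcript of another gene. Among the 44 genes with more than 50% shared windows 43 rose (median 0.87), and among the 39 others 32 rose (median 0.77). The share was 98.5% for Rps27, 84.6% for Rpl36a, 58.6% for Rpl22l1, 12.0% for Rps27l and 7.0% for Rpl22, so the paralog shares above hold for counted reads. Adding the rows of 287 named pseudogenes, which held 0.00881% to 0.0114% of counts in CTRL and 0.0145% to 0.0225% in CML 2wk, to their parents left 75 genes higher.

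Levels between genes were compared per length, as CPM per kilobase of the principal transcript, in median over the 12 libraries. Rps12 (2412), Rpl32 (1997), Rplp1 (1933) and Rps4x (1641) were among the 5 highest. This order depends on the transcript taken as principal, which for Rps20 had 3706 bases (206 CPM per kilobase in CTRL). Which transcripts the cells used was not measured. Apart from Rpl10l at 0, the lowest were Rpl39l (0.117), Rpl3l (0.275), Rps27rt (4.39) and Rps19bp1 (19.5). Rps19bp1, whose product binds eS19 and is not part of the ribosome, rose by 0.56 ± 0.10 (adjusted p = 0.000322). Rpl24 and Rps10, which every ribosome needs, also came out low, at 23.2 and 37.4 CPM per kilobase in CTRL, with 80.9% and 90.1% of windows shared with other genes. Rpl24 rose by 1.08 ± 0.12 and Rps10 by 0.64 ± 0.14. Rpl24, Rps10 and Rps20 were named after their values were seen.

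Sequences at the starts of the genes are shown because the genes moved together and are known for common start features. Of the 86 principal transcripts (GENCODE, build GRCm38), 12 (14.0%) began at their annotated first base with C and at least 4 further C or T, against 2.22% of 21866 protein-coding genes. The first 20 bases of 5 of them follow, with the C and T run in capitals, for genes that rose (Rps21, Rpl32, Rps24), that barely passed (Rpl4) and that did not pass the test (Rps27rt).
Rps21: CCCTCCTgcccaatagtgct
Rpl32: CTTCCTTCTTCCTCggcgct
Rps24: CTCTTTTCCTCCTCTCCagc
Rpl4: CTTTTCCTgtgggagcagcc
Rps27rt: CTTTCCggcggtgacgacct

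Both kinds of start were found among genes that rose. Of the 12 with it 10 rose, with a median log2 fold change of 0.73, against 0.83 for the other tested genes. Annotated starts are often some bases away from the true start, and no match says only that these letters are not at the annotated base. With a start allowed within 5 bases, 45.5% of the 66 genes with a RefSeq promoter window matched, against 21.2% of all genes.

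In windows of 300 bases, 250 before and 50 after the annotated start, CCGGAAG on either strand, the core that ETS family factors such as GABP bind, was present in 39.4% of the 66 genes, against 9.93% of all 27025 genes with a window. TATAAA on either strand was present in 10.6% against 15.7%, and CACGTG, the E-box of the Myc family, in 9.09% against 8.09%. Of 58 genes that rose and have a window 25 (43.1%) held CCGGAAG, and of 5 that did not pass the test (Rpl22, Rpl23, Rpl28, Rpl35a and Rps27rt) 0 did. Median log2 fold changes were 0.86 with the motif and 0.77 without it. A match is a description of letters and shows no binding.

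The 80 bases from 60 before to 20 after the annotated start are printed for 3 of the largest increases, chosen because they hold CCGGAAG (capitals) in this stretch, and for Rpl22l1, Rpl22 and Rpl23, which do not. Of the 8 genes among the 10 largest increases that have a window, 5 held the motif in it, and Rpl12, Rpl36al and Rps12 did not. Rps27l, Rps21 and Rpl22 have a second annotated start, whose stretch lacks the motif and is not printed. The coordinates are of RefSeq build GRCm38.p6. Rps27l lies at chr9:66946026-66946105 (+ strand), Rpl41 at chr10:128549149-128549228 (- strand), Rps21 at chr2:180257319-180257398 (+ strand), Rpl22l1 at chr3:28805448-28805527 (+ strand), Rpl22 at chr4:152325666-152325745 (+ strand) and Rpl23 at chr11:97782420-97782499 (- strand).
Rps27l: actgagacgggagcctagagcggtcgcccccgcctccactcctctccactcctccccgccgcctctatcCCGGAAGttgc
Rpl41: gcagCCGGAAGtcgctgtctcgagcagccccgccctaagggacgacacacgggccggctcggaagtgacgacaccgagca
Rps21: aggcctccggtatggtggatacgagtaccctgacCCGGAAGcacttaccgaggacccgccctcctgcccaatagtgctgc
Rpl22l1: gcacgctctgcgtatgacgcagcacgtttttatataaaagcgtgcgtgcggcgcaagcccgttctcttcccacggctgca
Rpl22: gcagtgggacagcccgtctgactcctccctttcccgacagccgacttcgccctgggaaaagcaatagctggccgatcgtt
Rpl23: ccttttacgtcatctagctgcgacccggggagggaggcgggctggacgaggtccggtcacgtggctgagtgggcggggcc

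Rpl22 and its paralog Rpl22l1, whose shares shifted, differ in these stretches, in that the paralog holds TATAAA and the parent does not. In stretches not printed, the parent Rpl36a holds TATAAA and its paralog Rpl36al does not. Neither Rps27 nor its paralog Rps27l holds it. The stretches are shown as annotated, and the starts used in LSK cells were not measured.

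Other constituents of the ribosome and its supply chain were examined through lists that the name rule does not cover. Fau (fused to eS30) and Rack1, a scaffold on the small subunit, rose by 0.89 and 0.80. Of 16 genes listed for TOP mRNAs, translation factors and other proteins such as Npm1, Nap1l1 and Hnrnpa1, 11 were higher and 4 lower. Of all genes 30.6% were higher and 29.0% lower. Those that rose included the elongation factor subunits Eef1a1 (0.61 ± 0.10) and Eef1b2 (0.96 ± 0.12), the initiation factor subunits Eif3e (1.21 ± 0.10) and Eif3h (1.01 ± 0.10), and the nascent chain proteins Naca (0.99 ± 0.11) and Btf3 (1.26 ± 0.11). The 4 that fell were Eef2, the translocase, the initiation factor Eif4b, the poly(A)-binding protein Pabpc1 and the RNA-binding protein Hnrnpa1. Eef2 went from 2942 to 3562 CPM in CTRL to 1780 to 2806 CPM in CML 2wk (log2 fold change -0.54 ± 0.10, adjusted p = 0.000237), so that a long-known TOP mRNA fell while the ribosomal protein mRNAs of the same libraries rose. Eif4b, Pabpc1 and Hnrnpa1 had log2 fold changes of -0.61, -0.62 and -0.45, with adjusted p of 3.16e-05, 9.75e-06 and 8.97e-05.

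Of 18 genes tested for ribosomal protein chaperones and late assembly factors, 15 rose and 1 fell, beside the same shares of all genes. The largest increases were of Pno1, a factor of small subunit maturation (1.73 ± 0.10, adjusted p = 2.12e-08), Rpf2, which brings Rpl5, Rpl11 and 5S RNA to the precursor (1.46 ± 0.09, adjusted p = 2.43e-08), and Nmd3, the export adaptor of the large subunit (1.23 ± 0.07, adjusted p = 1.71e-08). Pno1 was at 35.5 to 47.2 CPM in CTRL and 116 to 175 CPM in CML 2wk. Aamp fell by 0.36 on the log2 scale (adjusted p = 0.00216).

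A list on TOP mRNA control held 9 genes, among them the S6 kinases Rps6kb1 and Rps6kb2 and also Myc. Of these 9 genes, 5 were lower and 2 higher, beside 29.0% and 30.6% of all genes. Larp1, the repressor that binds the TOP start, fell by 0.58 (adjusted p = 8.22e-06), Mtor by 0.55 (adjusted p = 4.54e-07) and Eif4ebp2, a repressor of the cap-binding factor, by 1.00 (adjusted p = 1.71e-08). Eif4e, the cap-binding factor itself, rose by 0.70 ± 0.07 (adjusted p = 1.24e-06), and Eif4ebp1 rose by 0.70 ± 0.20 (adjusted p = 0.00696). Myc, which drives ribosome production, stood at 298 to 360 CPM in CTRL and 260 to 364 CPM in CML 2wk (-0.09 ± 0.08, adjusted p = 0.360). These are mRNA levels, and activity of mTOR or translation was not measured.

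**Figure D5:**
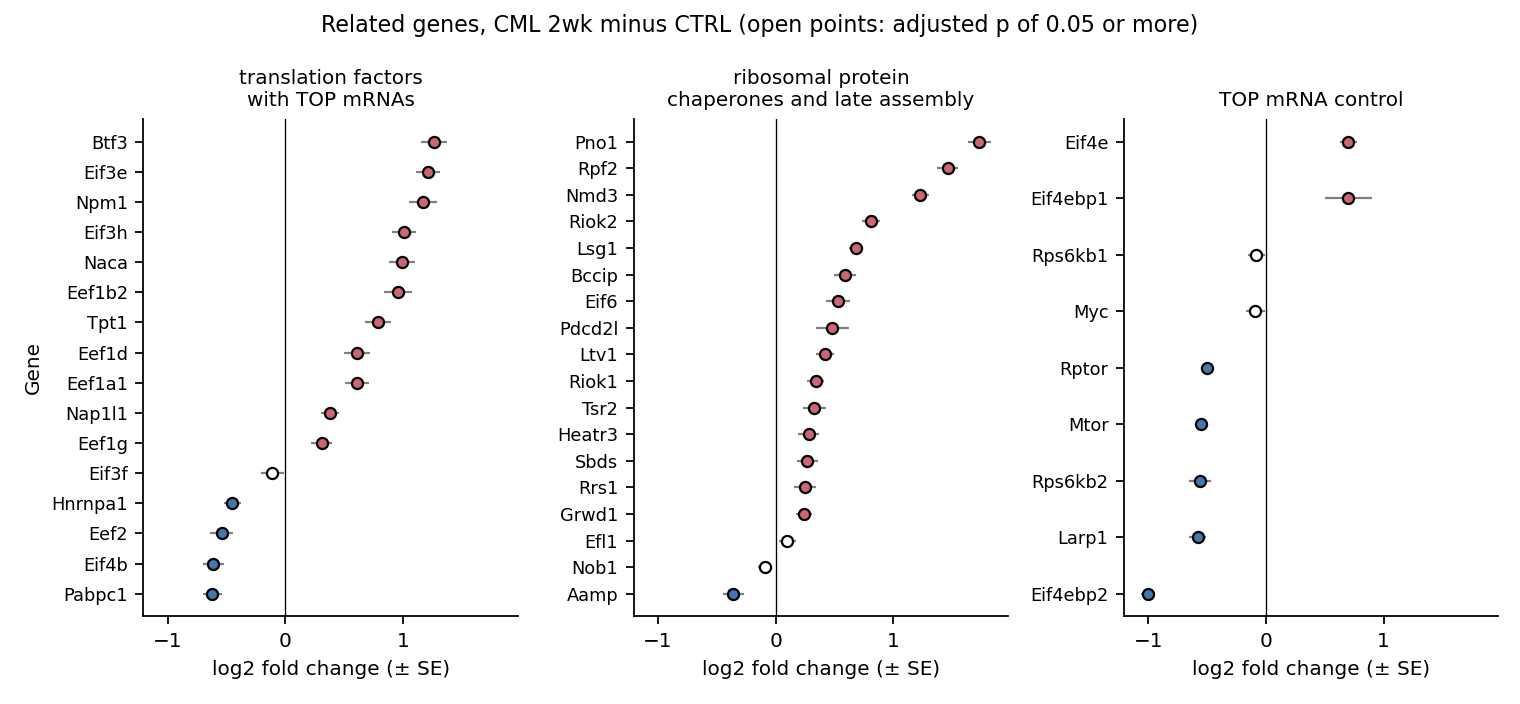
Log2 fold change of CML 2wk over CTRL with bars of 1 SE for 3 lists of related genes, red where higher, blue where lower and open where the adjusted p was 0.05 or more. Of the genes tested, 15 of 18 chaperones and assembly factors rose, and 5 of 9 genes listed for TOP mRNA control fell. The panel of translation factors with TOP mRNAs, which also holds other proteins, was split 11 to 4.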

How the data were processed

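Bulk RNA-seq of 12 libraries (6 CTRL, 6 CML 2wk) was used, with groups and replicate numbers taken from the sample labels. The authors deposited raw counts per Ensembl gene, without normalization. The submitters' processing notes name FastQC 0.11.9, fastp 0.23.2, STAR 2.7.10a, featureCounts 2.0.1, DESeq2 1.36.0 and GRCm39, while the methods of the study name Trim Galore!, HISAT2, featureCounts and hg38 for bulk RNA-seq. The annotation release, the strand setting and the handling of reads with several matches are not given in the sources used here. Losses of such reads would lower genes with close copies, and overlapping genes are uncertain for the same reason.

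Identifiers were matched to GENCODE M21 (52125 of 56748), and unmatched ones held 1.32% to 3.71% of counts. Genes were tested with edgeR 4.0.16 in R 4.3.3 (TMM factors, filterByExpr, quasi-likelihood test, SE as the absolute log2 fold change over the root of F). CPM are counts scaled to the TMM-adjusted library size, and log2 CPM used a prior count of 2. Exact permutation tests used scipy 1.17.1 under Python 3.11.15. Intervals and floors of 3 counts cover counting error only, and the widest 95% Wilson interval of a paralog share spanned 1.82 points (Rpl22l1). Transcript lengths and starts are those of the shortest principal transcript. Labels do not say that libraries came from separate mice, so p values measure the spread between these libraries, and no pair of a group agreed within sampling noise (lowest chi-square per degree of freedom 4.072).

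Members and lists were chosen with earlier results of these data known. Genes were named by rule: the 10 largest changes each way among called genes, paralogs with parents, genes called against the majority, Rplp0, Rplp1, Rplp2, Rpsa, X-linked genes, and the 5 highest and lowest levels per length. Values of 3 genes are not reported here. Alternatives cover scaling, filters, DESeq2 1.42.0, left-out libraries, the replicate block and pseudogene rows. In counts simulated for this comparison (18438 genes) edgeR called 34 of 100 genes changed by 0.5 on the log2 scale, 67 of 100 changed by 1 and 2 of 17978 unchanged. The simulation gave a gene the same dispersion in both groups. In the data the coefficient of variation between libraries estimated by edgeR was 10.9% in CTRL and 32.6% in CML 2wk, so these rates need not hold there.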

Additional observations from a re-analysis of the deposited data

Results flagged for a closer look

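In groups of 6 libraries, a library was marked where its gap to the nearest of the others, over the range of the group, exceeded Dixon's 95% critical value. Of 108 groups looked at 8 were marked, all in CML 2wk, and chance marks about 1 in 20 groups. CML 2wk replicate 6 stood above the other 5 libraries for Rplp0 (3330 CPM against 2022 to 2443), Rps4x (2310 CPM against 1525 to 1756) and Rpl39l (4.34 CPM against 0 to 0.225). Its Rpl39l share of the pair with Rpl39 was 0.419%, against 0 to 0.0441% in the others. CML 2wk replicate 1 had the highest Rpl7l1 share (9.79%, against 8.82% to 9.10%), and replicate 5 the highest Rps27rt share (1.03%, against 0.236% to 0.528%). For Rps3a3, which has no protein-coding annotation, CML 2wk replicate 2 had 14.6 CPM against 3.23 to 7.49 CPM, and a share beside Rps3a1 of 0.737% against 0.163% to 0.373%.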

How the results depend on the processing

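Genes higher in CML 2wk numbered 71 to 77 and genes lower 0 under every alternative run, with a median log2 fold change of 0.68 to 0.89. Without 1 library each they numbered 73 to 76 (median 0.68 to 0.86), and the DESeq2 test called 74. With the replicate number as a block (replicate block) 72 were called. Same-numbered libraries did not deviate together (correlations of -0.125 to 0.0679, 0 of 6 over 0.1, 0 of 6 best with their own number). No pairing by number was seen in these correlations, and whether same-numbered libraries shared a batch was not tested. The median over all genes (0.07) moved to 0.14 with upper-quartile factors, 0.13 with the DESeq2 test, 0.02 with the replicate block and 0.04 without CML 2wk replicates 2 and 4. Calls lost under at least 1 alternative were those of Rpl4, Rps2, Rps4x and Rpl36a, and calls gained those of Rpl21, Rpl22, Rps27rt and Rps29.

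Genes called at the mRNA entry dropped from 2 to 1 with no filter, with the replicate block and without replicate 6 of both groups, and ranged from 1 to 2 without 1 library, in each case through Rps2. X-linked calls dropped to 2 without replicate 6 of both groups. The direction of Rpl23 and Rpl28, both near 0, changed. Rpl23 was -0.05 with no filter and -0.07 without replicate 6 of both groups, and Rpl28 -0.00 and -0.02. Without 1 library, Rpl23 ranged from -0.06 to 0.11 and Rpl28 from -0.01 to 0.13. Among pairs, the Rps27rt difference ranged from -0.0651 to 0.0939 points without 1 library, and that of Rps3a2 was 0.00710 without replicate 6 of both groups. No gene or pair whose direction changed passed a test under either setting, and the cause was not tested. Differences for Rpl22l1 (8.92 to 9.89 points), Rps27l (9.88 to 11.5) and Rpl36al (3.01 to 3.42) kept direction and call without 1 library each. Depth limits Rpl39l, Rpl3l and Rpl10l, at few or no counts in most libraries.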
